A study of Mus musculus with 2 samples.

Results

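The vessel lining of the newborn mouse heart was described here through 41 endothelial genes, taken by symbol from the 43346 mouse genes of each gene table and grouped as 28 pan-endothelial genes, 5 arterial genes, 1 lymphatic gene and 7 transcription factors. All 41 were found in both tables. The data are 2 RNA sequencing libraries from B6NCrl pups at postnatal day 0, replicate 1 being that of pup 1 and replicate 2 that of pup 3. Each library was made from 13 pg of total RNA longer than 200 nt, the amount the labels equate with 1 cell, so a library described as single cell holds RNA of the whole heart and not of an isolated cell. There is 1 group and no treatment or control. Both samples carry the same donor identifier in the labels although they name different pups, so the spread between the libraries may be partly technical. With 1 group there is no test and no p-value, and each value below is a description with its SD over n = 2.

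Endothelial cells line all vessels and the heart chambers, and they are recognised by cell-cell junction proteins, by receptors for vascular growth factors and by a small set of transcription factors. VEGF receptors drive vessel growth, TIE receptors stabilise vessels, Notch signalling and particular connexins mark arteries, and a further VEGF receptor marks lymphatic vessels. ETS and SOX family factors bind enhancers and promoters of many of these genes. In the heart, endothelial cells are numerous but small, and most heart mRNA comes from muscle cells.

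Replicate 1 held 40648662 expected counts and replicate 2 held 33173354, of which 39671930 and 32751851 fell on mouse genes. Spike-in RNA took 2.40% and 1.27% of the counts. Levels are in TPM, transcripts per 1000000, which corrects for gene length and was rescaled to mouse genes alone. A gene at 0 counts may hold up to 3 counts by counting error, which is 0.0756 counts per 1000000 in replicate 1 and 0.0916 in replicate 2. This limit covers counting error alone, since reads carry no molecular identifiers. Fold limits built on it apply to reads and do not bound the difference in RNA. Cardiac muscle markers summed to 40659 and 61506 TPM, fibroblast markers to 1093 and 917 TPM, and smooth muscle and pericyte markers to 1057 and 1615 TPM. The 6 leukocyte markers summed to 87.6 and 47.8 TPM, most of it Lyz2 at 81.3 and 43.3 TPM. Csf1r was at 6.26 and 0.0102 TPM and Adgre1 at 0 and 4.49 TPM, and Ptprc, Cd68 and Cd3e had 0 counts in both.

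The endothelial genes together took nearly the same small share of the RNA in both hearts. They summed to 2036 TPM in replicate 1 and 2017 TPM in replicate 2, which is 0.204% and 0.202% of all mouse TPM (0.203 ± 0.00134%, SD, n = 2). In bulk tissue, fewer endothelial cells and less RNA per cell cannot be told apart. A gene was called read at 1 TPM or more, and by that limit 31 of the 41 genes were read in both libraries, 37 in at least 1 and 4 in neither. Of all mouse genes, 15.3% were read in both and 75.1% in neither, and of protein-coding genes 28.4% and 55.4%. The genes were listed because vessels are known to use them, so that comparison only checks that the tissue label fits the RNA. Of the pan-endothelial group, 25 of 28 were read in both libraries. The arterial group had 3 of 5, the single lymphatic gene was read in both, and the transcription factors had 2 of 7.

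**Figure D1:**
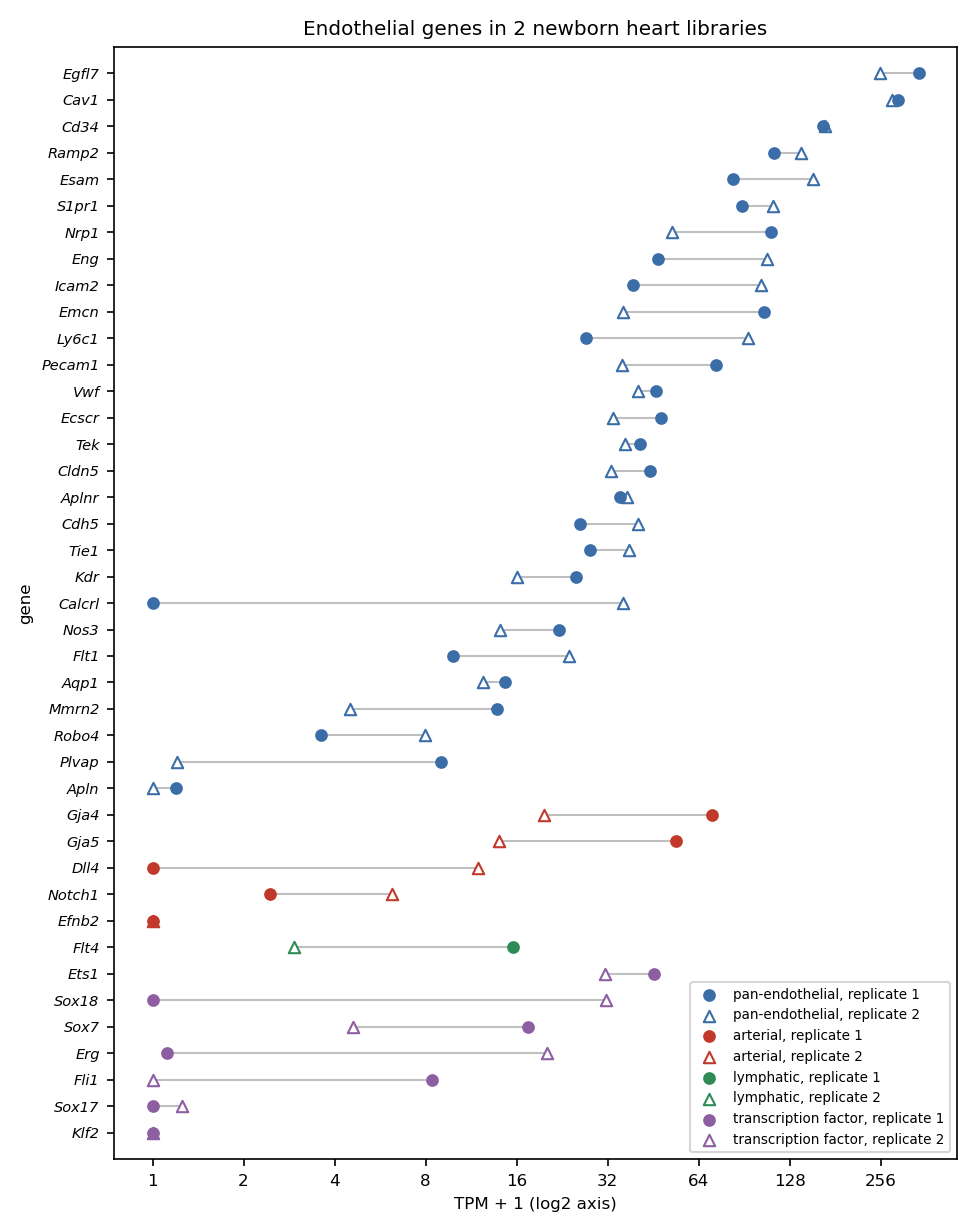
Level of each of the 41 endothelial genes in both libraries, as TPM + 1 on a log2 axis, by group and mean level; circles are replicate 1, triangles replicate 2, and a grey line joins the pair. The sum over the genes is 2036 TPM in replicate 1 and 2017 TPM in replicate 2, while single genes such as Calcrl, Sox18 and Dll4 stand at 0 in replicate 1 and at 34.9, 30.6 and 10.9 TPM in replicate 2.

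The near-equal sums hid large differences between single genes. Differences are given as log2 of (TPM + 1), replicate 2 minus replicate 1, a scale that understates differences of weakly expressed genes. Of the 33 genes that averaged 5 TPM or more, 16 lay over 2-fold apart, 8 higher in replicate 2 (Flt1, Eng, Icam2, Ly6c1, Calcrl, Dll4, Sox18 and Erg) and 8 lower (Nrp1, Pecam1, Emcn, Mmrn2, Gja4, Gja5, Flt4 and Sox7). Over all 8266 mouse genes at that level the background was 54.6% over 2-fold apart, with 27.7% higher and 26.9% lower in replicate 2, so the count is near that of any gene. The median difference of the 33 genes was -0.16, against 0.01 over all genes. Setting the 3 genes at 0 counts in replicate 1 to their lower bounds left it at -0.16. That could not have moved it, since these genes already lie above the median.

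The spread narrowed with level, as it did for all genes. None of the 5 endothelial genes with a mean of 100 to 1000 TPM was over 2-fold apart, against 21.4% of all genes in that range. At 30 to 100 TPM it was 8 of 17, against 42.6% of all genes. At 10 to 30 TPM it was 4 of 7, against 61.0%, and at 5 to 10 TPM it was 4 of 4, against 80.4%. Most differences between the hearts in the weaker genes below are therefore of the size found across all genes at that level, and the heart, the RNA aliquot and the amplification cannot be told apart as their source.

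**Figure D2:**
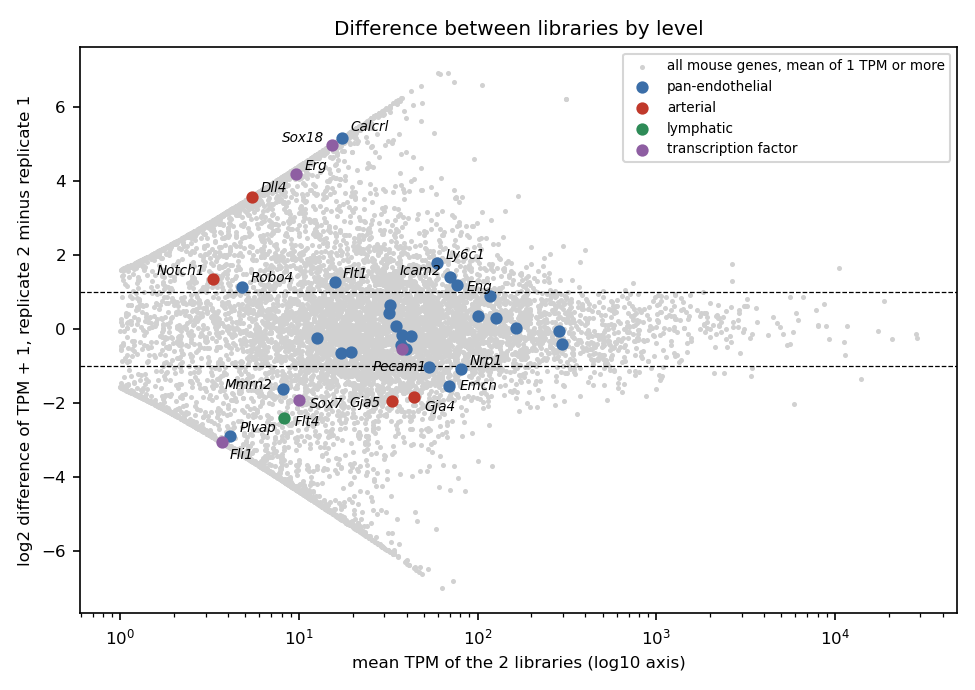
Difference between the libraries (log2 of TPM + 1, replicate 2 minus replicate 1) against the mean TPM on a log10 axis, for genes that averaged at least 1 TPM; grey points are all mouse genes, coloured points the endothelial genes by group, and dashed lines mark 2-fold. The 5 endothelial genes averaging 100 TPM or more lie between the lines, and the named genes, outside them, have lower means.

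Among the ligands that reach endothelial receptors, 6 of 16 were read in both libraries, against 28.4% of protein-coding genes. Vegfb, a growth factor that binds Flt1, stood at 69.4 TPM in replicate 1 and at 31.9 TPM in replicate 2. Vegfa, the main ligand of Kdr, had 1 count in replicate 1 (0.0104 TPM) and 475 counts in replicate 2 (32.8 TPM). Bmp10, a heart-made ligand for the endoglin receptor complex, was read at 10.6 and 19.9 TPM. Vegfc and Vegfd, which activate Flt4, had 0 counts in both libraries, as did Angpt2, Gdf2 and Tgfb1. Of the 8 ligands that averaged 5 TPM or more, 1 was over 2-fold higher in replicate 2 and 3 were over 2-fold lower, beside 27.7% and 26.9% of all genes.

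The 4 VEGF receptors were all read in both hearts. Nrp1, the neuropilin co-receptor on chromosome 8 (128358604 to 128503363, plus strand, mm10), was the highest, at 110 TPM in replicate 1 and at 51.2 TPM in replicate 2 (80.7 ± 41.7 TPM). Kdr, the main signalling receptor for VEGF-A, was read at 24.1 and 15.1 TPM, on chromosome 5 (75932827 to 75978458, minus strand). Flt1, a high-affinity receptor that limits VEGF signalling, stood at 8.85 and 22.8 TPM. Per length, the log2 ratio of Kdr to Flt1 was 1.35 in replicate 1 and -0.56 in replicate 2. In counts per 1000000 it was 1.71 and 0.31, with Kdr above Flt1 in both, so whether the order differs between the hearts depends on the unit. Nrp1 is also used by other heart cells, so its level is not endothelial alone.

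Flt1 also differed in its transcripts. The full-length coding Flt1-202 took 57.9% of Flt1 TPM in replicate 1 and 16.6% in replicate 2. Flt1-201, annotated as a processed transcript with no coding frame, took 42.1% and 75.4%, and the coding Flt1-203 took 0% and 8.03%. In expected counts, which are not corrected for length, the Flt1 difference was 0.77 on the log2 scale in place of 1.27.

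The angiopoietin receptor pair was the most even set of receptors. Tek, which encodes the angiopoietin receptor TIE2, was read at 40.0 and 35.7 TPM (37.9 ± 3.09 TPM) on chromosome 4 (94739289 to 94874976, plus strand). Tie1, its co-receptor with no well-established ligand of its own, was read at 27.0 and 36.7 TPM. Neither was over 2-fold apart, and their log2 ratio was 0.55 in replicate 1 and -0.04 in replicate 2. The ligand Angpt1, which activates TIE2, was read at 9.47 and 17.8 TPM.

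The transcripts of Tek split over an internal coding exon in both hearts. The exon is exon 4 of 23 in Tek-203, at chr4:94799127-94799279 on the plus strand, and it is 153 nt long, or 51 codons in frame. Tek-203 took 31.0% and 65.8% of Tek TPM, and Tek-202, which lacks the exon, took 46.6% and 34.2%. Tek-201, which also holds the exon, took 22.4% and 0%. Transcripts that hold the exon made up 53.4% of the TPM spanning it in replicate 1 and 65.8% in replicate 2 (59.6 ± 8.73%). The sequence is shown because both forms held a large share of the gene in each heart. Capitals mark the exon, and 15 nt of the neighbouring exons flank it.
Tek exon 4 in Tek-203: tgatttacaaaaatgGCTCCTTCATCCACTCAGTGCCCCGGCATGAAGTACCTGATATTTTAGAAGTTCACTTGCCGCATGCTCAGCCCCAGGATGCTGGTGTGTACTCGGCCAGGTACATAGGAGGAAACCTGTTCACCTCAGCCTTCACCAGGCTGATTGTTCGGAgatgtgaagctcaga
Tek join in Tek-202: tgatttacaaaaatggatgtgaagctcaga

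Receptors of the adrenomedullin, apelin and sphingosine phosphate systems were read in both hearts, with Calcrl as the exception. S1pr1, the sphingosine 1-phosphate receptor that tightens the vessel barrier, was read at 87.9 and 112 TPM (100 ± 17.0 TPM). Aplnr, the apelin receptor, was read at 34.2 and 36.0 TPM (35.1 ± 1.30 TPM). Its ligand Apln had 19 counts in replicate 1 (0.198 TPM) and 0 in replicate 2. The receptor stood above the ligand in both hearts, by 5.04 ± 0.24 on the log2 scale of TPM + 1. That size is set by the added 1, and it was 7.67 with 0.1 added.

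Ramp2 and Calcrl together form the adrenomedullin receptor, with Ramp2 as the accessory protein that takes Calcrl to the cell surface. Ramp2 was read at 113 and 139 TPM (126 ± 18.5 TPM). Calcrl, on chromosome 2 (84330626 to 84425411, minus strand), had 0 counts in replicate 1 and 2731 in replicate 2 (34.9 TPM). Against the limit of 3 counts in replicate 1, reads were at least 1103-fold higher in replicate 2 per 1000000 counts. That bound covers counting error alone and is not one on the RNA. The ligand Adm, named after its values were seen, went the other way, at 20.9 and 0.256 TPM. Over all genes that averaged 5 TPM or more, 20.1% had under 3 counts in 1 library, and 22.6% of those at 10 to 30 TPM, the range that holds Calcrl.

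The Ramp2 level carries a further limit. Ramp2-205, annotated as a retained intron, took 55.2% of its TPM in replicate 1 and 72.5% in replicate 2. The coding Ramp2-204 took 42.9% and 3.05%. Other coding forms went the other way, with Ramp2-201 at 0.03% and 11.8% and Ramp2-202 at 1.92% and 12.6%. Ramp2 shares 1103 nt of exon with Vps25 on the same strand, a gene of general membrane sorting read at 175 and 126 TPM. How reads were divided between them rests on the authors' estimation. In expected counts the Ramp2 difference was -0.03 on the log2 scale, in place of 0.30 in TPM.

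Eng encodes endoglin, the endothelial co-receptor for BMP9, BMP10 and TGF-beta. It was read at 46.1 and 107 TPM (76.3 ± 42.8 TPM). Its kinase partner Acvrl1, named after its values were seen, went the other way, at 48.1 and 20.2 TPM. Among targets of that pathway, Id3 was read at 94.3 and 104 TPM, and Id1, likewise named afterwards, had 2 counts (0.0729 TPM) and 994 counts (43.4 TPM).

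Junction and adhesion genes, which hold endothelial cells together, were all read in both hearts. Cd34, a surface sialomucin of small vessels and progenitor cells, was nearly equal at 164 and 166 TPM (165 ± 1.47 TPM). Esam, an adhesion molecule of endothelial tight junctions, was read at 82.3 and 152 TPM. Icam2, an adhesion molecule that endothelium carries at rest, was read at 38.0 and 102 TPM, a log2 difference of 1.40. Cd34 and Esam were thus within 2-fold and Icam2 was not.

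Pecam1 encodes CD31, the standard marker of endothelium, on chromosome 11 (106654217 to 106750628, minus strand). It was read at 72.3 and 34.8 TPM (53.6 ± 26.5 TPM). Cdh5, the gene of VE-cadherin and the core of the adherens junction, went the other way, at 24.9 and 39.4 TPM (32.2 ± 10.3 TPM). Cldn5, a tight-junction claudin, was read at 43.1 and 31.8 TPM. The log2 ratio of Cdh5 to Pecam1 was -1.50 in replicate 1 and 0.18 in replicate 2, so these junction markers did not keep 1 order.

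Platelets also carry Pecam1, Icam2 and Vwf, and their markers differed between the libraries. The 5 platelet and megakaryocyte markers summed to 102 TPM in replicate 1 and 22.6 TPM in replicate 2. Pf4 was read at 84.6 and 11.8 TPM and Ppbp at 17.6 and 0 TPM, whereas Itga2b was read at 0 and 10.8 TPM. Gp1bb and Gp9 had 0 counts in both libraries. Pecam1 was higher in the library with more platelet marker RNA and Icam2 was higher in the other, and the part of platelet RNA in their levels was not tested.

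The 2 hearts gave different leading transcripts of Pecam1. Pecam1-202 took 76.1% of its TPM in replicate 1 and 0% in replicate 2, and Pecam1-203 took 5.96% and 86.0%. These forms differ by a coding exon of 57 nt, exon 14 of 15 in Pecam1-202, at chr11:106671742-106671798 on the minus strand, which adds 19 codons in frame near the end of the gene. The cytoplasmic tail of CD31, encoded there, is known to be spliced in several forms. Transcripts that hold the exon made up 94.0% of the TPM spanning it in replicate 1 and 13.5% in replicate 2. In replicate 2, the 0 counts of Pecam1-202 carried a posterior SD of 15.6 counts in the authors' estimate, beside 2570 counts for Pecam1-203. The exon is shown in capitals with 15 nt of its neighbours, and the second line gives the join without it.
Pecam1 exon 14 in Pecam1-202: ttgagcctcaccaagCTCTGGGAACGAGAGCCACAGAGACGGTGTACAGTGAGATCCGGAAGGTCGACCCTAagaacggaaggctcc
Pecam1 join in Pecam1-203: ttgagcctcaccaagagaacggaaggctcc

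**Figure D3:**
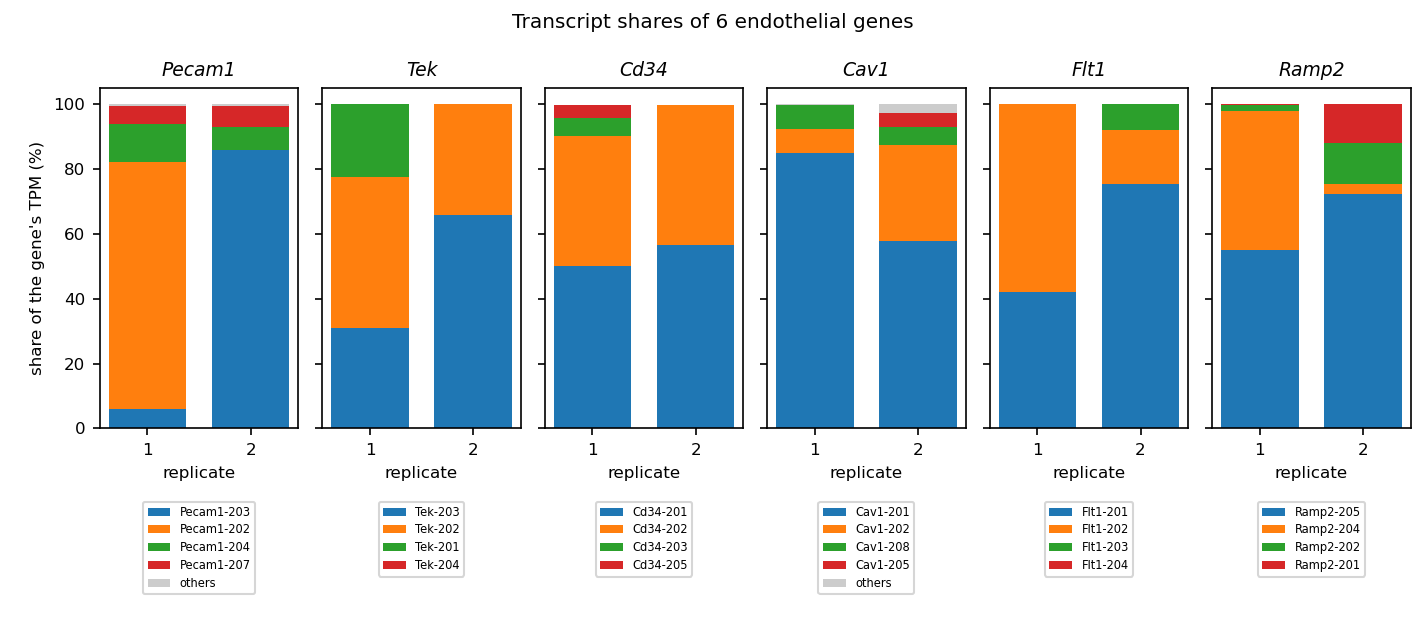
Share of the gene's TPM (percent) that each transcript took in replicate 1 and replicate 2, for 6 endothelial genes; each colour is 1 of the 4 transcripts with the highest mean share of that gene, and grey is the rest. Pecam1-202 takes 76.1% in replicate 1 and 0% in replicate 2, whereas Cd34-201 takes 50.0% and 56.5%.

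Leading transcripts could be compared for 22 members that averaged 5 TPM or more and have several annotated transcripts, leaving out Calcrl and Dll4, which had 0 counts in replicate 1. By share of TPM, 16 of them were led by the same transcript in both hearts, and the 6 others were Egfl7, Erg, Flt1, Pecam1, Tek and Vwf. By share of expected counts it was also 16, but Vwf kept its lead, with Vwf-210 in both, and Ramp2 did not. Among genes that kept their lead, Cd34-201 took 50.0% and 56.5% and the coding form Cd34-202 took 40.2% and 43.5%. Cdh5, Cldn5, S1pr1, Nrp1, Gja4, Aqp1, Mmrn2, Sox7 and Sox18 have 1 annotated transcript, so their levels do not rest on how reads were divided among transcripts. Transcripts are estimated from amplified short reads, and no error beyond the authors' posterior SD is known for a share in 1 library.

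Genes of secreted and other surface proteins held the highest endothelial level by mean TPM. Egfl7, a secreted factor that endothelial cells lay into the vessel wall, was read at 341 and 254 TPM (298 ± 61.2 TPM), on chromosome 2 (26580014 to 26593120, plus strand). Its level was above that of 98.2% of protein-coding genes in replicate 1 and 97.7% in replicate 2. Emcn, the capillary and venous sialomucin endomucin, was read at 104 and 35.0 TPM. Ly6c1, a surface antigen of microvessels, went the other way, at 26.1 and 92.4 TPM, while its near copy Ly6c2 was read at 0 and 0.102 TPM.

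Vwf, the clotting factor that endothelial cells store and release, was read at 45.1 and 39.5 TPM (42.3 ± 3.97 TPM). Its expected counts went the other way, at 2106 and 3006, a log2 difference of 0.78 per 1000000 counts. The tables give it a mean transcript length of 1545 nt in replicate 1 and 2878 nt in replicate 2. Its leading form was Vwf-209, a processed transcript, with 67.1% of TPM in replicate 1, and Vwf-210, marked for nonsense-mediated decay, with 43.8% in replicate 2. Vwf-209 is 456 nt long and held 16.6% and 2.72% of counts. A transcript of 8817 nt, without a name in the annotation used, held 35.1% and 34.9% of counts but 5.81% and 11.1% of TPM. The order of the hearts for Vwf therefore depends on the unit.

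Ecscr, a regulator of endothelial movement, was read at 47.1 and 32.2 TPM. Mmrn2, an extracellular matrix protein of vessels, was read at 12.8 and 3.50 TPM. Robo4, a guidance receptor that stabilises vessels, was read at 2.62 and 6.98 TPM. Plvap, which forms the diaphragms of fenestrated capillaries, had 493 counts in replicate 1 (7.97 TPM) and 11 in replicate 2 (0.204 TPM). Of the 8 genes in this set, Plvap alone fell below 1 TPM in a library.

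Cav1 encodes caveolin, the coat of the small membrane pits that fill capillary endothelium. By mean TPM it was the second highest of the 41 genes, and in replicate 2 it was the highest. Its level was close to equal, at 292 and 279 TPM (285 ± 8.80 TPM). Nos3, the endothelial nitric oxide synthase, was read at 21.1 and 13.1 TPM. Aqp1, a water channel of capillaries, was read at 13.7 and 11.4 TPM. Red cells also carry Aqp1, and their 7 markers summed to 5668 and 5572 TPM. The part of red cell RNA in its level was not tested. Nos3 shares 294 nt of exon with Atg9b on the opposite strand, which had 0 counts in both libraries.

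Cav1 is annotated with a pair of starts, and the estimated counts of their transcripts were divided differently in the hearts. Transcripts annotated from the upstream start, at position 17306335 of chromosome 6, held 90.3% of Cav1 counts in replicate 1 and 64.6% in replicate 2. Those from the downstream start, at position 17307640, held 9.68% and 35.4%. Their main form, Cav1-202, had 1908 and 5980 counts, with posterior SDs of 353 and 328. Reads at the starts themselves were not counted. The windows of 250 bases before to 50 bases after each start are shown because the division of the gene turns on them, and they were chosen after its values were seen. The windows are RefSeq sequences of GRCm38.p6. Capitals mark the ETS motif AGGAAG or its reverse complement CTTCCT, and the SOX motif AACAAT or ATTGTT.
Cav1 upstream start, chr6:17306085-17306384, plus strand: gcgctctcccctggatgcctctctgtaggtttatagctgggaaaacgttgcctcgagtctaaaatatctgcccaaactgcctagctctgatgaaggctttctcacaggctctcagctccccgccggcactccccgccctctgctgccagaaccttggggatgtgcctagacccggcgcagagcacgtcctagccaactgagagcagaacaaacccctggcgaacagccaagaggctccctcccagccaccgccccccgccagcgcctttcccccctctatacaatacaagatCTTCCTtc
Cav1 downstream start, chr6:17307390-17307689, plus strand: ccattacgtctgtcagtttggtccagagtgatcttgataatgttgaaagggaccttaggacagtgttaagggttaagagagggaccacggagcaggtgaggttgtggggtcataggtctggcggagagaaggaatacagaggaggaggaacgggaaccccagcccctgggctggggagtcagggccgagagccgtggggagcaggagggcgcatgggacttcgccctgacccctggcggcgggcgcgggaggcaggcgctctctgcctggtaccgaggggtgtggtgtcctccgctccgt

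Arterial genes summed to 124 and 47.9 TPM in replicates 1 and 2, and their members did not differ in 1 direction. Of the 3 that averaged 5 TPM or more, both connexins were over 2-fold lower in replicate 2 and Dll4 was higher. Gja4, the connexin 37 gene of arterial endothelium on chromosome 4 (127311421 to 127314039, minus strand), was read at 69.7 and 18.8 TPM (44.2 ± 36.0 TPM). Gja5, the connexin 40 gene, was read at 52.9 and 13.0 TPM. The pair kept its order per length, with Gja4 above Gja5 by 0.44 ± 0.08 on the log2 scale. In counts per 1000000 the order was the opposite, at -0.41 ± 0.16: the tables give Gja4 a length of 1685 nt and Gja5 one of 3109 and 2924 nt.

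Gja5 is also a gene of atrial muscle and the conduction system, and some atrial markers were also lower in replicate 2. The 6 atrial markers, listed after the data were seen, summed to 12938 and 8271 TPM. Of these, 5 were read in both libraries, against 28.4% of protein-coding genes. Myl7 was read at 4639 and 2239 TPM and Sln at 839 and 219 TPM, both over 2-fold lower. Nppa, at 6346 and 4806 TPM, and Myl4, at 1104 and 987 TPM, were within 2-fold, whereas Bmp10 was higher, at 10.6 and 19.9 TPM, and Kcnj3 was at 0 and 0.634 TPM. The 4 ventricular markers summed to 11760 and 26641 TPM. The part of atrial muscle in the level of Gja5 was not tested. Gja5 also shares 165 nt of exon with Gpr89 on the opposite strand, read at 22.4 TPM in replicate 1 and 0 in replicate 2, and no rule for strand is given in the sources used here.

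Both Notch members were higher in replicate 2, and further Notch ligands were lower. Dll4, the Notch ligand of arteries and sprouting tip cells on chromosome 2 (119325784 to 119335962, plus strand), had 0 counts in replicate 1 and 1090 in replicate 2 (10.9 TPM). By counting error alone, its reads were at least 440-fold higher per 1000000 counts. Over all genes averaging 5 to 10 TPM, the range that holds Dll4, 49.3% had under 3 counts in 1 library. Dll4 shares 214 nt of exon with the antisense gene Gm14207, which was read at 10.2 TPM in replicate 1 and 0 in replicate 2. Notch1, the receptor, was read at 1.45 and 5.18 TPM, and its antisense partner Gm13568 at 0.354 and 13.0 TPM. Without strand in the counting, reads of such partners cannot be told apart. Lower in replicate 2 were the further ligands Jag1, at 4.16 and 1.34 TPM, Dll1, at 21.4 and 0.757 TPM, and Jag2, at 4.11 and 0 TPM. The receptor Notch4 was at 0.677 and 0 TPM.

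Efnb2, the arterial ephrin ligand, had 0 counts in both libraries. Ephb4, its receptor on veins, was read at 3.79 and 6.84 TPM, so the ligand lay below the receptor in both hearts, by 2.62 ± 0.50 on the log2 scale of TPM + 1, a size that depends on the added 1. Beyond these members, 4 of 10 further arterial genes were read in both libraries, against 28.4% of protein-coding genes. Gja1, the main connexin of heart muscle as well as of vessels, was read at 490 and 434 TPM, Cxcl12 at 50.5 and 34.2 TPM and Hey2, also a ventricular muscle factor, at 34.3 and 16.3 TPM. Of 10 venous and endocardial genes, 5 were read in both, against the same 28.4%. They were led by Tmem100 at 38.6 and 11.7 TPM, the junction gene Cgnl1 at 25.0 and 14.9 TPM and the co-receptor Nrp2 at 11.7 and 4.36 TPM.

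The lymphatic member was lower in replicate 2, and further lymphatic genes did not all follow it. Flt4, the VEGFR3 gene on chromosome 11 (49609263 to 49652739, plus strand), was read at 14.6 and 1.94 TPM in replicates 1 and 2, from 2901 and 326 counts. The log2 ratio of Kdr to Flt4 was 0.69 in replicate 1 and 2.45 in replicate 2, so Kdr was above Flt4 in both, by 1.57 ± 1.25, under 2 SD. The 6 further lymphatic genes summed to 42.0 and 41.5 TPM, and 3 of them were read in both libraries, against 28.4% of protein-coding genes. Prox1, the lymphatic master factor that heart muscle also expresses, was read at 16.5 and 20.2 TPM, and Lyve1, which macrophages also carry, at 21.5 and 7.49 TPM. Reln was higher in replicate 2, at 1.07 and 13.8 TPM. Mmrn1 and Ccl21a, more restricted lymphatic genes, had 0 counts in both libraries.

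Of the 7 transcription factor genes, Ets1 and Sox7 were read in both libraries. Ets1, an ETS factor expressed in many cell types, was the highest, and of the 4 factors that averaged 5 TPM or more it alone was within 2-fold, at 44.6 and 30.4 TPM (37.5 ± 9.99 TPM). Erg and Fli1 are its closer endothelial relatives and they split between the hearts. Erg had 4 counts in replicate 1 (0.115 TPM) and 911 in replicate 2 (19.2 TPM), and Fli1 had 750 counts in replicate 1 (7.40 TPM) and 0 in replicate 2. By counting error alone, Fli1 reads were at least 206-fold lower. Each heart therefore gave reads from 1 member of this pair and almost none from the other. Over all genes averaging 5 to 10 TPM, the range that holds Erg, 49.3% had under 3 counts in 1 library. Erg had 4 in replicate 1, and Fli1 averaged 3.70 TPM, below that range.

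The SOXF factors, which direct arterial and lymphatic vessel formation, also differed between the hearts, though Sox7 was read in both. Sox18, on chromosome 2 (181669836 to 181671640, minus strand), had 0 counts in replicate 1 and 1276 in replicate 2 (30.6 TPM). By counting error alone, its reads were at least 515-fold higher. Over all genes averaging 10 to 30 TPM, the range that holds Sox18, 22.6% had under 3 counts in 1 library. Sox7 was read at 16.4 and 3.62 TPM. Sox17 had 0 and 7 counts. The log2 ratio of Sox18 to Sox7 was -4.12 in replicate 1 and 2.78 in replicate 2, so neither of these factors was above the other in both hearts, whereas Sox7 was above Sox17 in both, by 3.00 ± 1.59, under 2 SD (4.29 ± 1.64 in counts per 1000000, beyond it). Summed, the 3 genes gave 16.4 and 34.5 TPM.

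Klf2, a factor that blood flow induces in endothelium, had 0 counts in both libraries, which allows up to 0.0756 and 0.0916 counts per 1000000 by counting error alone. Klf4, its relative, was read at 4.64 and 3.92 TPM. Of 19 further endothelial transcription factors, 6 were read in both libraries, against 28.4% of protein-coding genes. Mef2c, also a muscle factor, was read at 22.8 and 30.2 TPM and Lmo2, a blood and vessel factor, at 37.4 and 1.07 TPM. Across the 16 pairs of genes set side by side, 9 had a log2 ratio of 1 sign in both libraries. In 4 of them the mean was beyond 2 SD: Aplnr over Apln, Gja4 over Gja5, Ephb4 over Efnb2 and Klf4 over Klf2. The last 2 show only that Ephb4 and Klf4 were read, since Efnb2 and Klf2 had 0 counts, and Gja4 over Gja5 turns over in counts as given above. In counts per 1000000, 5 pairs were beyond 2 SD.

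Start-site windows of RefSeq were matched for 24 of the 41 genes, 30 windows of 300 bases in all. The motif AGGAAG, the core of many ETS sites, was found on either strand in 15 of the 24 genes (62.5%), against 38.4% of all 27025 genes with a window. AACAAT, a SOX motif, was found in 4 genes (16.7%), against 12.2%. CACCC, the KLF box, was found in 21 genes (87.5%), against 59.8%. The fourth motif searched, GATAA of the GATA-factor family, was found in 6 genes, against 28.4% of all. None of these motifs contains another, and a match is a run of letters, not a shown binding site. Some windows hold no start of a counted transcript, among them those of Nrp1, Flt4, Aqp1 and Tie1.

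Windows are shown for the member highest in mean TPM, among those with an entry, of the pan-endothelial, arterial and transcription factor groups. ETS and SOX matches are in capitals as above. The Egfl7 window holds the start of transcripts with 63.1% and 71.0% of its counts, and the Gja4 window holds the start of all of its counts. The Erg window holds both motifs, but no counted transcript with a known position starts in any of its 3 windows. Of its 911 counts in replicate 2, 425 and 308 fell on transcripts without a name in the annotation used. Their starts were not placed, so whether they begin in a window is not known.
Egfl7, chr2:26583615-26583914, plus strand: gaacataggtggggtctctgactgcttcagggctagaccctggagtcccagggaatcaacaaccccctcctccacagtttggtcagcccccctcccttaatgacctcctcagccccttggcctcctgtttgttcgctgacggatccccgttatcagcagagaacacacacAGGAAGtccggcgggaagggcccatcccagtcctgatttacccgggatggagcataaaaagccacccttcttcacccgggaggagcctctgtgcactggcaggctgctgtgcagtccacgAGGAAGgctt
Gja4, chr4:127313990-127314289, minus strand: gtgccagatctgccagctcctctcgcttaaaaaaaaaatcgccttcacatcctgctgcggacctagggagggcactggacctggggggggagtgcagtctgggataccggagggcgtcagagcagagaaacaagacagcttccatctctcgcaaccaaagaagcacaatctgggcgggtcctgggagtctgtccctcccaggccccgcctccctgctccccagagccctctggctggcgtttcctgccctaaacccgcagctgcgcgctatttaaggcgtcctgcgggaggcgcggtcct
Erg, chr16:95459299-95459598, minus strand: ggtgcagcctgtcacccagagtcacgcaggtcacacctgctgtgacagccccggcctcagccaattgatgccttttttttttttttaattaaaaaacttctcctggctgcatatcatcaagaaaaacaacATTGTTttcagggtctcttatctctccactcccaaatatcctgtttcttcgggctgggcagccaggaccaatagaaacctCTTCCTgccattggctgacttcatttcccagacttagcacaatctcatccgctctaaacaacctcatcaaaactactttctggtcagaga

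Egfl7 carries 2 ETS matches in this window, Erg carries 1 together with 1 SOX match, and Gja4 carries neither motif.

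Of 88 genes of the same pathways outside the 41, 38 were read in both libraries, against 28.4% of protein-coding genes. Of the 47 that averaged 5 TPM or more, 11 were over 2-fold higher in replicate 2 and 14 lower, near the 27.7% and 26.9% of all genes. The partners and targets of the receptors had 11 of 20 read in both, led by Id3, by the G-protein subunit Gng11 at 63.5 and 123 TPM, and by the surface protein Tm4sf1 at 99.6 and 78.8 TPM. Capillary fatty acid genes, by which heart endothelium passes fuel to muscle, summed to 2036 and 2670 TPM, and 6 of 10 were read in both. Fabp4, a fatty acid carrier of capillaries, was read at 828 and 989 TPM, and Cd36, a fatty acid receptor that muscle also has, at 625 and 370 TPM. Lpl, the lipase that muscle makes and endothelium displays, was read at 164 and 581 TPM.

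**Figure D4:**
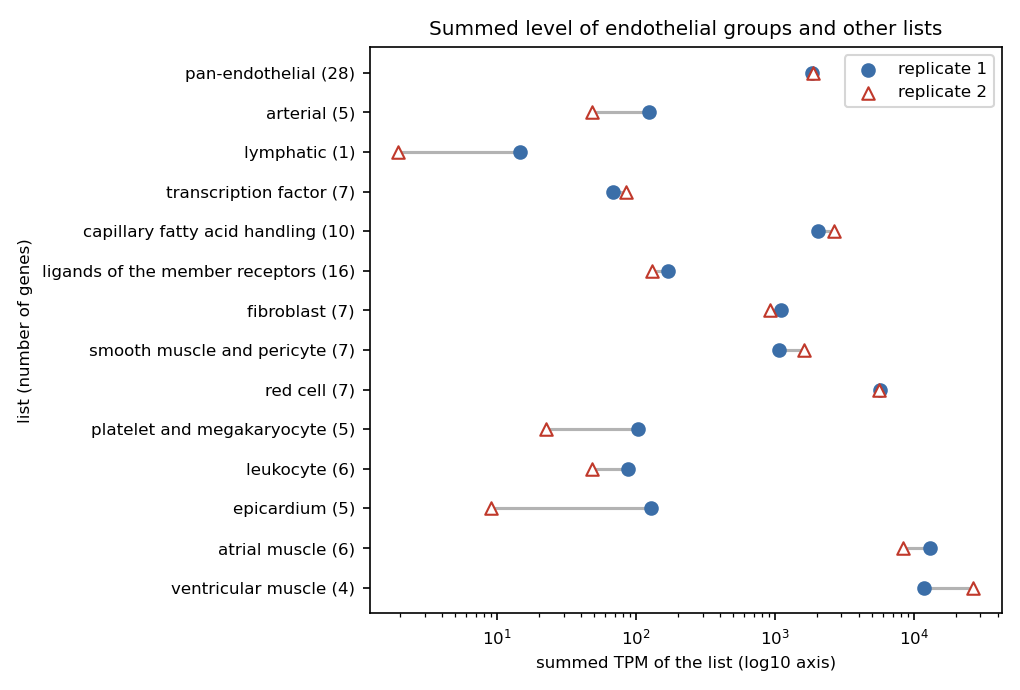
Summed TPM of each gene list in replicate 1 (circles) and replicate 2 (triangles) on a log10 axis, with the number of genes in brackets. The pan-endothelial sums of 1829 and 1883 TPM nearly coincide, as do the red cell sums of 5668 and 5572 TPM. Lower in replicate 2 are the arterial, ligand, fibroblast, platelet, leukocyte, epicardial and atrial sums and the 1 lymphatic member, Flt4. The transcription factor, capillary fatty acid, smooth muscle and ventricular sums are higher there.

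Epicardial markers, from the outer layer of the heart, summed to 127 and 9.02 TPM. Of these, 1 of 5 was read in both, against 28.4% of protein-coding genes, and Wt1 had 0 counts in both. Msln was read at 79.0 and 8.26 TPM, Krt19 at 24.4 and 0 TPM and Upk3b at 23.7 and 0 TPM. Tbx18 went the other way, with 0 counts in replicate 1 and 95 in replicate 2 (0.757 TPM). The arterial, platelet and epicardial sums were thus lower in replicate 2, as were the leukocyte, fibroblast and atrial sums. The pan-endothelial sum was not, at 1829 and 1883 TPM. Of the 41 genes, 11 share exon bases with another annotated gene, 9 of them with a gene on the opposite strand, and 6 of the 11 overlap a gene read at 1 TPM or more in a library.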

How the data were processed

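RNA was measured in 2 libraries of newborn heart. Per the file headers, the authors deposited expected counts (estimated reads that need not be whole) and TPM for genes and transcripts, with posterior means and SDs of the count, and the percent of its gene that each transcript takes. Deposited text notes name mm10 and GENCODE M4. The aligner, the quantifier and any strand rule were not given in the sources used here.

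Deposited TPM was rescaled to 1000000 over the 43346 mouse genes, without 96 spike-ins and 26248 rows named only by a number. GENCODE M21, of the same assembly, gave names, positions and exon sequences (42462 genes matched by identifier), and start-site windows from RefSeq GRCm38.p6. A gene was called read at 1 TPM, and compared at a mean of 5 TPM with a pseudocount of 1. With 1 group, no test was made. All 41 genes are named, with mostly the leading 3 of each further list and members of 16 pairs, and a few others were named after their values were seen. The members and lists were chosen with earlier results of these data known. The calls were tested on simulated counts that vary by counting error alone. That checks the calculation and not how the calls behave under the wider spread of these libraries.

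Expected counts were rounded to whole numbers for 2 alternatives, the TMM scaling of edgeR 4.0.16 and the size factors that DESeq2 1.42.0 gives. Calculations used Python 3.11.15, pandas 2.3.3, numpy 2.4.6, scipy 1.17.1 and R 4.3.3. Reads carry no molecular identifiers, so count limits cover counting error only. Protein sequences were not used here, and 1 further marker of platelets and 1 of leukocytes were left out and are not reported here.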

Additional observations from a re-analysis of the deposited data

How the results depend on the processing

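No paired analysis was possible because the libraries form 1 group. The share of RNA on the 41 genes, 0.203%, was 0.378% in expected counts, which weight long genes more, and 0.196% with spike-ins and unnamed rows in the total. It was 0.148% without Cav1, Nrp1, Aqp1 and Cd34, genes that other heart cells also use, an alternative chosen after seeing the data. With 1 library at a time it ranged from 0.202% to 0.204%, and the genes read ranged from 33 to 35 in place of 31 in both. The 16 genes over 2-fold apart were 8 at a mean of 20 TPM or more, where fewer genes are compared, and 5 of the 9 genes with 1 annotated transcript in expected counts, also chosen after seeing the data. The median difference of -0.16 was -0.045 in expected counts and -0.045 in posterior mean counts and -0.27 with DESeq2 size factors, and the cause was not tested. DESeq2 factors shift all genes by -0.11. Of the 33 genes compared, 31 kept their sign in expected counts (Vwf and Ramp2 did not), 32 with TMM factors (Cd34 did not) and 31 with DESeq2 factors (Cd34 and Aplnr did not). On the given strand alone, the ETS, SOX, KLF and GATA motifs were found in 10, 2, 11 and 3 genes in place of 15, 4, 21 and 6, and in 22.3%, 6.38%, 36.3% and 16.2% of all genes. Depth was high, but 1 library a heart limits every comparison.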

Other observations

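Of 9 genes listed for endothelial activation, 2 reached 1 TPM in both libraries, against 28.4% of protein-coding genes. Sele, Selp, Angpt2, Esm1 and Procr had 0 counts in both. The list mixes genes that inflammation or injury induces with others, such as Thbd, so the count is not one of induced genes alone. Vcam1, a leukocyte adhesion molecule that heart mesenchyme also uses, was read at 83.5 and 23.8 TPM in replicates 1 and 2. F3, tissue factor, which heart muscle also makes, was read at 18.2 and 25.4 TPM. Thbd, thrombomodulin of the resting vessel wall, had 43 counts in replicate 1 (0.365 TPM) and 2734 in replicate 2 (27.5 TPM). Icam1 went the other way, at 19.7 TPM in replicate 1 and 0 counts in replicate 2.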
